A study of Mus musculus with 6 samples.

Results

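The cyclin D axis of the cell cycle was described here through 10 genes: the INK4 inhibitors Cdkn2a, Cdkn2b, Cdkn2c and Cdkn2d, the CIP/KIP inhibitor Cdkn1b, cyclin D1 (Ccnd1), its kinase Cdk4, and the RB family Rb1, Rbl1 and Rbl2. They were chosen by symbol. Each of the 10 had a probe set that the platform annotation maps to that symbol alone, out of 19937 genes measured in this way, and where a gene had several the brightest was used. RNA of 3 MTT and 3 MPC samples was read on 6 Affymetrix Mouse Gene 1.0 ST arrays, 1 per sample. MPC is a mouse pheochromocytoma line from NF1 knock-out mice, grown as a differentiated, slow model; MTT was derived from liver metastases of MPC cells and grows faster, so both lines carry the NF1 background. Both are kept in DMEM with fetal bovine and horse serum, and the labels list no treatment. The tissue field reads liver metastasis and the growth field names MTT on all 6 samples, so the MPC group rests on title and cell type. The methods speak of separate MTT samples and of triplicates, without saying whether these were separate cultures, and do not describe the MPC samples. P-values therefore measure the spread between these samples, which may be technical. Arrays of bulk RNA also cannot tell fewer cells with a transcript from less of it per cell.

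In G1, D-type cyclins bind CDK4 or CDK6 and phosphorylate the RB proteins, which then release E2F transcription factors and let the genes of DNA replication be expressed. INK4 proteins (p16 from Cdkn2a, p15 from Cdkn2b, p18 from Cdkn2c, p19 from Cdkn2d) bind CDK4 and CDK6 directly, while p27 (Cdkn1b) acts mainly on cyclin-CDK2 complexes. Neural crest-derived chromaffin cells are a tissue where this brake is known to matter: mice with reduced Rb1, or lacking p18 and p27 together, are prone to neuroendocrine tumors.

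Genes of the axis are themselves known targets of E2F, so their promoters are shown first. Windows came from the RefSeq table (GRCm38.p6, 250 bases before to 50 after a start site). Of the 10 genes, Ccnd1 and Rb1 had none and were not searched. The other 8 had 10 windows in all. Each was searched on both strands for 4 E2F letter strings, TTTCCCGC, TTTCGCGC, TTTGCCGC and TTTGGCGC. This search was chosen after the expression values were seen. A match was found in 2.27% of all 32851 windows and in 2 of the 10 windows here, those of Rbl1 and of the upstream start of Cdkn2a. The windows below are shown for these 2 genes, with the match in capitals, and for E2f3, a gene of the axis whose signal differed between the lines. Cdkn2a has 2 starts: the upstream one gives Arf, an activator of p53 in another reading frame, and the downstream one gives p16. The annotation of its single probe set lists transcripts of both, so the signal does not separate them.
Rbl1 (chr2:157204485-157204784, minus strand): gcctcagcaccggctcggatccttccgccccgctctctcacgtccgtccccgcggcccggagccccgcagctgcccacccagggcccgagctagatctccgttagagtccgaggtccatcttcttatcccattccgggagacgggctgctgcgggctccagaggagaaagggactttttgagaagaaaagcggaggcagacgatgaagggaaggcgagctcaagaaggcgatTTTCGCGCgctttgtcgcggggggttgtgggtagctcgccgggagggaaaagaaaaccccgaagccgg
Cdkn2a, upstream start (chr4:89294570-89294869, minus strand): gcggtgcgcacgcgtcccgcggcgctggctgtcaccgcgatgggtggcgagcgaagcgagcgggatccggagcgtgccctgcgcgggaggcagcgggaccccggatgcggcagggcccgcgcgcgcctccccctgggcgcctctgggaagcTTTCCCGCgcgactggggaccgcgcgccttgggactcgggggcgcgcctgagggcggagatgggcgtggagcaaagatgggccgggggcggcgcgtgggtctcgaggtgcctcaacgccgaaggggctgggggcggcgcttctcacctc
Cdkn2a, downstream start (chr4:89282143-89282442, minus strand): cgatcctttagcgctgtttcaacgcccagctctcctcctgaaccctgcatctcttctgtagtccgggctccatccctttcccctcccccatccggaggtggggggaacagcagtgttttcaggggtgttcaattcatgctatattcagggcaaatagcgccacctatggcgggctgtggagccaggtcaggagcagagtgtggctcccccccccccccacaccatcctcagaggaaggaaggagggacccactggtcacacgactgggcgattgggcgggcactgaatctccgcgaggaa
E2f3, first start (chr13:29986014-29986313, minus strand): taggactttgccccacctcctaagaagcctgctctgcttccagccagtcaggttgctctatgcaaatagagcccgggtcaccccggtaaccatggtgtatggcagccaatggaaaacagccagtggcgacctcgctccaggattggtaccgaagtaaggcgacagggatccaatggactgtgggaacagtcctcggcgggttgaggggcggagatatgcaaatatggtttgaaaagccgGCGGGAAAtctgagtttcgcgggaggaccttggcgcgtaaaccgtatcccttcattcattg
The Rbl1 match begins 18 bases before the start site, the Cdkn2a match 99 bases and the E2f3 match 11 bases before it, the last on the other strand. The downstream Cdkn2a window held none of the 4 strings, nor did the second E2f3 window, which is not shown. Among genes fixed as G1/S targets of E2F, 8 of 15 with a window held a match, among them Mcm3, Cdc6 and Orc1. Of all 15613 tested genes with a window, 543 held one. The list was made of known E2F targets, so its share is no independent result. A match is a description of letters and not a site.

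None of the 10 genes passed limma's test of MTT against MPC cells (adjusted p under 0.05, 0 in either direction), while 7.87% of all genes did (1569 of 19937). At an unadjusted p under 0.05 there were 4 of the 10, against 20.5% of all genes. The differences were small. They ran from -0.099 for Cdkn2c to 0.12 for Ccnd1 on the log2 scale (MTT minus MPC), and the 95% intervals of the 10 genes together reached from 0.878 to 1.15 as a ratio of MTT over MPC signal. Array signals compress folds, so the ratios are of signal and not of transcript number. All 10 had a mean signal above the median of all genes (8.28). The median absolute difference was 0.078 among the 10 and 0.050 among all genes.

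**Figure D1:**
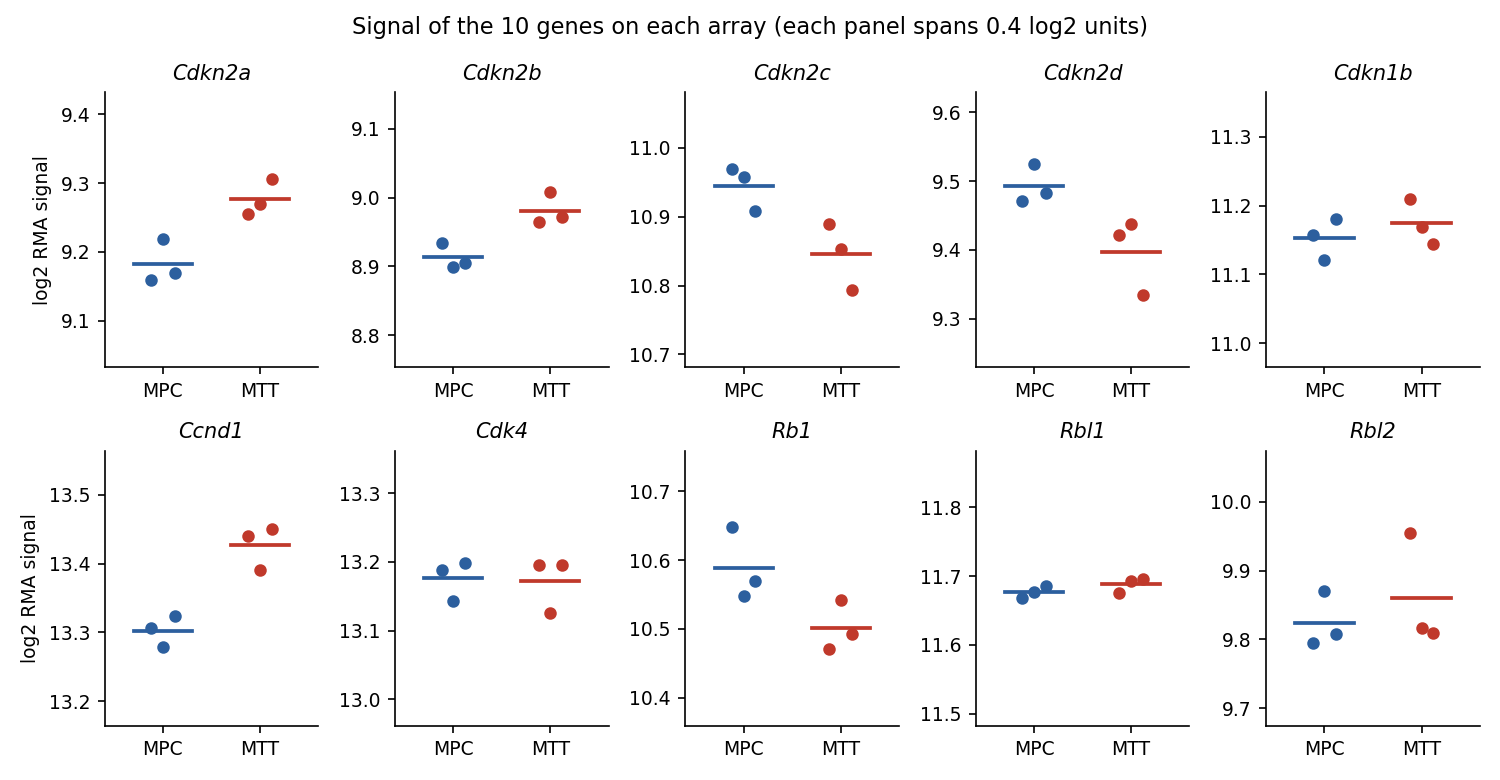
log2 RMA signal (vertical axis) of the 10 genes on the 3 MPC arrays (blue) and the 3 MTT arrays (red); each point is 1 array, each bar the mean of 3, and every panel spans 0.4 log2 units around its own level. The 3 MTT points lie above the 3 MPC points for Cdkn2a, Cdkn2b and Ccnd1 and below them for Cdkn2c, Cdkn2d and Rb1.

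The INK4 inhibitors split into pairs. Cdkn2a had log2 signals of 9.25, 9.27 and 9.31 in MTT cells and 9.16, 9.22 and 9.17 in MPC cells. Every MTT value was above every MPC value, at a log2 difference of 0.094 (95% interval 0.015 to 0.17, limma adjusted p = 0.165). Cdkn2b, its neighbour on chromosome 4, read 8.96, 9.01 and 8.97 in MTT and 8.93, 8.90 and 8.91 in MPC cells. Its groups did not overlap either, at a log2 difference of 0.068 (95% interval -0.0064 to 0.14, limma adjusted p = 0.286). Cdkn2c and Cdkn2d lay on the other side. Cdkn2c read 10.89, 10.85 and 10.79 in MTT and 10.97, 10.96 and 10.91 in MPC cells, a log2 difference of -0.099 (95% interval -0.19 to -0.011, limma adjusted p = 0.186). Cdkn2d read 9.42, 9.44 and 9.33 in MTT and 9.47, 9.53 and 9.48 in MPC cells, a log2 difference of -0.095 (95% interval -0.19 to -0.0047, limma adjusted p = 0.219). For both, all MTT values were below all MPC values. Groups that do not overlap were found in 6 of the 10 genes and in 27.2% of all genes (11.7% with MTT above and 15.4% with MTT below). None of the 4 passed the test, and the opposite sides were not tested against each other.

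The neighbours of the Cdkn2a and Cdkn2b locus overlapped between the lines. Mtap, the next gene measured beside Cdkn2a, which salvages methylthioadenosine and is often lost with it in tumors, read 10.27 ± 0.042 in MTT cells (SD, n = 3) and 10.30 ± 0.020 in MPC cells (SD, n = 3). Its log2 difference was -0.034 (95% interval -0.12 to 0.048, limma adjusted p = 0.663). Dmrta1, the next gene measured beside Cdkn2b, read 6.29 in MTT and 6.30 in MPC cells, under the median of all genes, and is not shown to lie above background. Of the 20 genes measured around Cdkn2a, 0 were higher and 1 was lower in MTT cells by limma. The 10 genes lie on 8 chromosomes, and none on chromosome 13 or 19, whose medians (0.082 and -0.061) stood apart. The medians of the 8 chromosomes were -0.016 to -0.0054.

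Cdkn1b, which encodes p27, overlapped between the lines. Its log2 signal was 11.21, 11.17 and 11.14 in MTT and 11.16, 11.12 and 11.18 in MPC cells, with a log2 difference of 0.021 (95% interval -0.059 to 0.10, limma adjusted p = 0.805). It was the one gene of the 10 with a further probe set. This dimmer one read 8.40, 8.25 and 7.97 in MTT and 8.36, 8.26 and 8.28 in MPC cells, so MTT replicate 3 was the lowest and the spread in MTT (SD 0.22, n = 3) was wider than in MPC cells (SD 0.051, n = 3). Its difference was -0.094 (95% interval -0.36 to 0.17), and the mean of both probe sets gave -0.036, a turned sign with no call under either (limma adjusted p = 0.810 for the mean).

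Ccnd1 showed the largest difference of the 10. Cyclin D1 is the regulatory subunit whose level couples growth signals to CDK4. Its log2 signal was 13.44, 13.39 and 13.45 in MTT and 13.31, 13.28 and 13.32 in MPC cells. All MTT values were above all MPC values, at a ratio of 1.09 (95% interval 1.03 to 1.15) and 0.12 as a log2 difference (SE 0.034, adjusted p = 0.0683 by limma). It did pass in 3 other settings: at an adjusted p of 0.00184 when variances followed a trend with the mean, of 0.0143 when dim genes were left out (where Cdkn2a also passed, at 0.0494), and of 0.0365 after cyclic loess. In these settings 12.1%, 22.1% and 8.86% of all genes passed. Cdk4, the kinase partner, read 13.20, 13.13 and 13.20 in MTT and 13.19, 13.14 and 13.20 in MPC cells. The lines overlapped. The difference was -0.0038 (95% interval -0.087 to 0.080, limma adjusted p = 0.972), and its sign turned under 5 of 14 other settings. Over the 6 arrays the genes most like Ccnd1 among 9967 others above the median signal were Foxi2 (Pearson's r = 0.996), Eif4enif1 (0.994) and Eid2 (0.989). Such likeness was common, since 105 had r over 0.95, and the 6 points share the 2 lines and the normalization.

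The RB family gave 1 gene with separate groups and 2 that overlapped, next to separate groups in 27.2% of all genes. Rb1, the retinoblastoma protein, read 10.47, 10.54 and 10.49 in MTT and 10.65, 10.55 and 10.57 in MPC cells. The highest MTT value lay just under the lowest MPC value, at a log2 difference of -0.087 (95% interval -0.18 to 0.0045, limma adjusted p = 0.267). Rbl1, which encodes p107 and has the E2F letters shown above, read 11.67, 11.69 and 11.70 in MTT and 11.67, 11.68 and 11.69 in MPC cells. It had the narrowest interval of the 10, a log2 difference of 0.011 (95% interval -0.060 to 0.081, limma adjusted p = 0.898). Rbl2, which encodes p130, the RB protein of resting cells, read 9.95, 9.82 and 9.81 in MTT and 9.79, 9.87 and 9.81 in MPC cells. MTT replicate 1 was the highest, and the difference of 0.036 (95% interval -0.074 to 0.15, limma adjusted p = 0.750) became -0.011 without it.

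**Figure D2:**
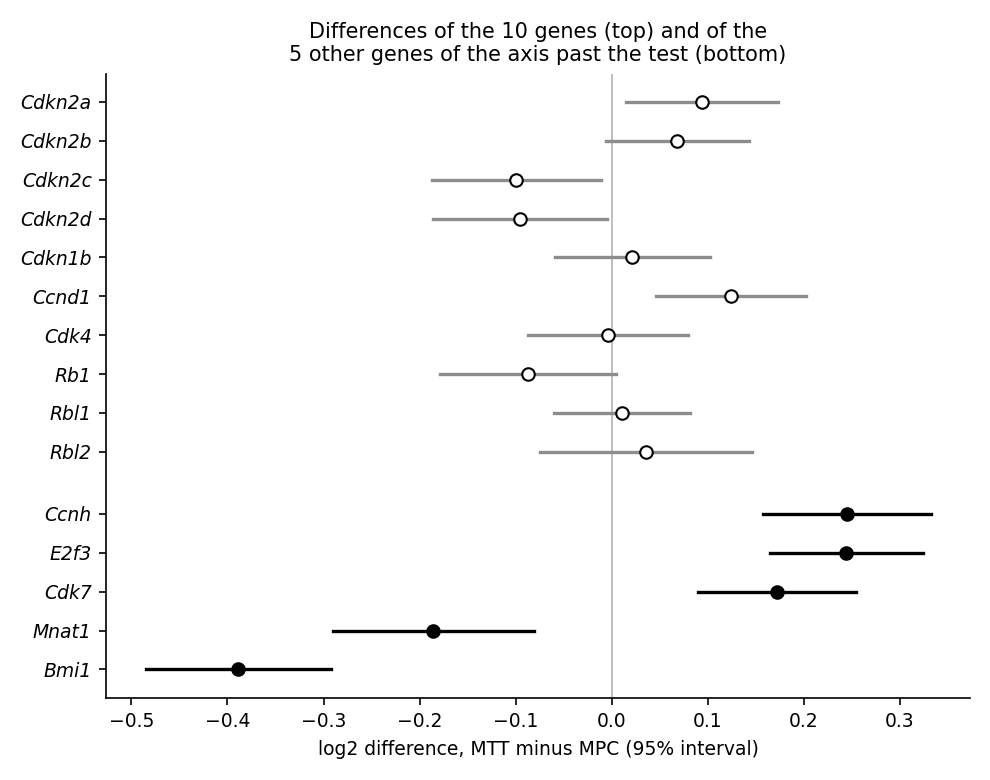
log2 difference between MTT and MPC cells (horizontal axis, MTT minus MPC) of the 10 genes and of the 5 other genes of the axis that passed limma's test (vertical axis). Points are estimates and bars 95% intervals; filled points passed at an adjusted p under 0.05, and all 10 upper points are open, from -0.099 for Cdkn2c to 0.12 for Ccnd1.

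Around these 10, 71 further genes of the axis were listed by role, and 68 had a probe set of their own. By limma 3 were higher and 2 lower in MTT cells and 63 did not pass, next to 3.93% higher and 3.94% lower among all genes. Their median log2 difference was -0.0063, and that of all genes -0.0081.

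Of the genes that act on the INK4 locus, Bmi1 differed. It encodes a Polycomb protein known to repress the Ink4a and Arf transcripts of Cdkn2a. Bmi1 fell by 0.39 on the log2 scale, from 10.82, 10.86 and 10.87 in MPC cells to 10.54, 10.44 and 10.41 in MTT cells. The groups were far apart, with an MTT over MPC ratio of 0.764 (95% interval 0.714 to 0.817, limma adjusted p = 0.00118), and the call held under all 14 other settings. Cdkn2a differed by 0.094 between the same samples, a value that did not pass, and whether the 2 are linked was not tested. The other 9 of 10 measured regulators of the Ink4 and Arf genes did not pass: Ezh2, the Polycomb methyltransferase, differed by 0.013, and Rnf2 and Ring1, catalytic partners of Bmi1, by -0.029 and 0.071. In the branch from Arf to p53, 3 of 4 listed genes were measured. Trp53, which encodes p53, had no probe set of its own, so p53 itself was not read. None of the 3 passed, and 0 had an unadjusted p under 0.05, next to 20.5% of all genes. The differences were -0.048 for Npm1, -0.024 for Mdm4 and -0.013 for Mdm2, the ubiquitin ligase that Arf binds.

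E2f3, an activator E2F that RB restrains, was the only one called of 10 measured E2F factors and DP partners. It read 10.10, 10.10 and 10.03 in MTT and 9.84, 9.85 and 9.81 in MPC cells. All MTT values were higher, by 0.24 on the log2 scale (SE 0.034, adjusted p = 0.00446 by limma), also under all 14 other settings. Of this list 1 was called, next to 7.87% of all genes, and 3 had an unadjusted p under 0.05, next to 20.5%. Those 3 were E2f3, the DP partner Tfdp2 and E2f5, a repressor E2F. Tfdp2 differed by 0.12 (limma adjusted p = 0.183). E2f5 differed by -0.094, with all MTT values below all MPC values (limma adjusted p = 0.225). E2f8 differed by -0.082, E2f4 by -0.066, E2f1 by 0.027 and E2f2 by -0.021, and none of these passed.

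The CDK-activating kinase is a trimer that phosphorylates CDK4 and other CDKs. The RNA signal of each of its 3 subunits passed limma's test, but Cdk7 and Mnat1 each passed in only 5 of 14 other settings. The cyclin of the trimer, Ccnh, read 10.63, 10.56 and 10.53 in MTT and 10.32, 10.36 and 10.31 in MPC cells. It rose by 0.24 on the log2 scale (SE 0.038, adjusted p = 0.00661 by limma), and the call held under all 14 other settings. The assembly factor Mnat1 went the other way, with 8.95, 8.91 and 8.79 in MTT and 9.07, 9.06 and 9.08 in MPC cells. Its log2 difference of -0.19 (limma adjusted p = 0.0455) survived the loss of an array in 1 of 6 cases (adjusted p from 0.0463 to 0.115), and did not pass once replicate numbers were blocked (adjusted p = 0.0602). The kinase Cdk7 had a log2 difference of 0.17 (limma adjusted p = 0.0240). This likewise survived in 1 of 6 cases (adjusted p from 0.0430 to 0.0861) and not with the block (adjusted p = 0.0502). The mean of the Cdk7 probe sets gave 0.13 (limma adjusted p = 0.0621). Ccnh, Cdk7 and E2f3, the 3 genes of the axis that were higher, all lie on chromosome 13, where the median of 732 genes was 0.082 and 249 were higher. The part of the chromosome in these values was not tested.

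E2F targets of the G1/S step did not separate the lines by the test used. Of 16 measured G1/S target genes of E2F, none passed limma's test, with 8 differences above and 8 below 0, 1 at an unadjusted p under 0.05 and a median of 0.0024. They ran from -0.074 for Mcm4, of the replicative helicase, to 0.094 for Tk1, a thymidine kinase. Of 7 other G1 cyclins and their kinases none passed, and 1 had an unadjusted p under 0.05. Of all genes, 7.87% passed and 20.5% had an unadjusted p under 0.05. Ccne2, a cyclin E, read 11.12, 11.20 and 11.15 in MTT and 11.25, 11.27 and 11.28 in MPC cells. Its difference of -0.11 (limma adjusted p = 0.0972) passed when variances followed a trend (adjusted p = 0.0173) and when dim genes were left out (adjusted p = 0.0234). The other cyclin E, Ccne1, differed by -0.075, Ccnd3 by 0.046 and Ccnd2 by 0.0028. The signals of Ccnd2 (7.81 in MTT) and Cdk6 (7.21 in MTT) were under the median of all genes and are not shown to lie above background.
The MuvB core joins p130 and p107 in the DREAM repressor, and the partners Mybl2 and Foxm1 are not part of it. Of 7 genes of the core and its partners, none passed and 1 had an unadjusted p under 0.05. Lin54 had the largest difference at -0.092 (limma adjusted p = 0.180), followed by Lin9 at -0.035. None of 11 genes of p27 and cyclin D1 turnover passed, with 1 at an unadjusted p under 0.05: Cul4a, a ubiquitin ligase scaffold, differed by -0.098 (limma adjusted p = 0.124). Fbxo4, an F-box protein tied to cyclin D1 turnover, differed by 0.091, and Skp2, the F-box protein that marks p27 for degradation, differed by -0.052. Cdkn1c, the p57 inhibitor, differed by -0.072 and did not pass. Its signal (8.12 in MTT) was under the median of all genes and is not shown to lie above background. Cdkn1a, the p21 inhibitor, was listed with it but had no probe set of its own and was not measured. Across all 543 tested genes with an E2F match in a window, 26 were higher and 27 lower, with a median of -0.0073. Among all genes, 3.93% were higher and 3.94% lower.

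**Figure D3:**
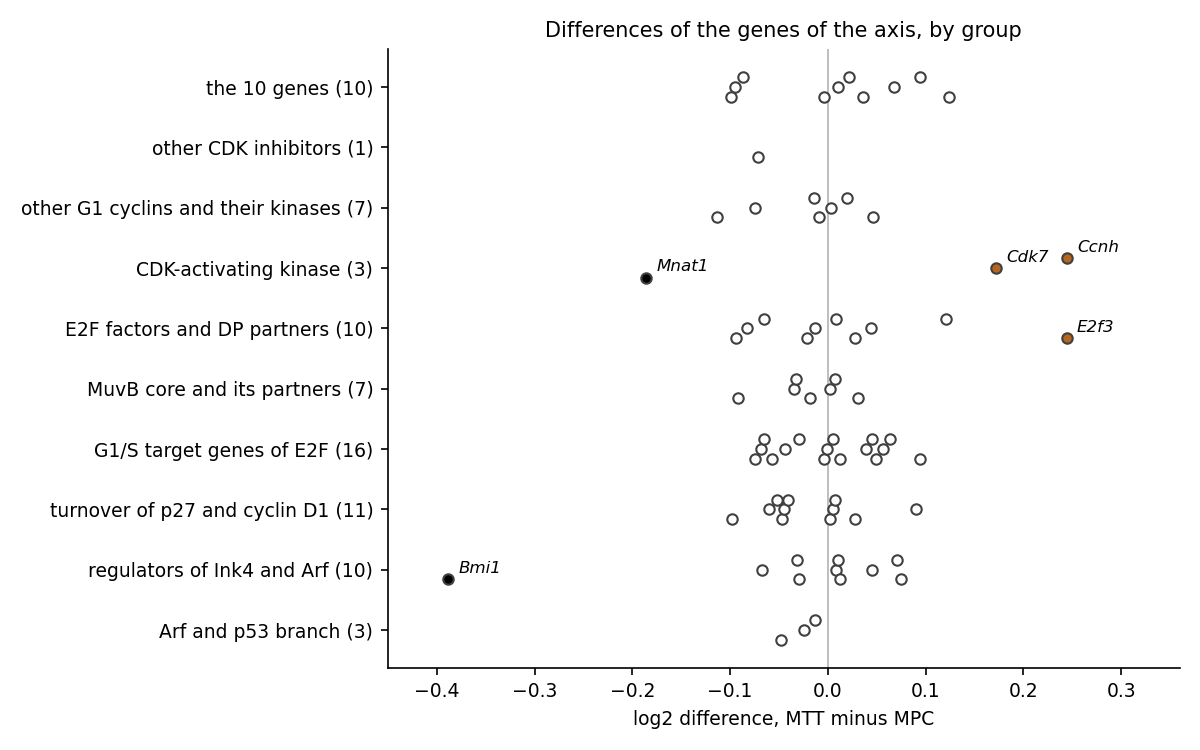
log2 difference between MTT and MPC cells (horizontal axis, MTT minus MPC) of the 10 genes and of 68 others of the axis, by role (vertical axis, number of genes in brackets). Filled points passed limma's test, brown on chromosome 13 and black elsewhere, and open points did not; the called genes run from -0.39 for Bmi1 to 0.24 for Ccnh.

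Both lines carried the markers of chromaffin cells. All 6 measured of 7 listed, among them Th and Dbh, lay above the median signal. Their mean log2 signal was 12.15 to 12.17 on MTT arrays and 12.13 to 12.16 on MPC arrays. Of these 6, 2 were called, in opposite directions, next to 7.87% of all genes. Chgb had a log2 difference of -0.15 (limma adjusted p = 0.0233) and Slc18a1 of 0.27 (limma adjusted p = 0.00424). No measured marker of adrenal cortex, endothelium, leukocytes or hepatocytes lay above the median. Of 4 fibroblast markers 2 did, Col1a1 (mean 8.74) and Col1a2 (8.30). The mean over all 4 fibroblast markers was 7.51 to 7.57 on MTT and 7.50 to 7.62 on MPC arrays. None of these other markers was called, and their part in the results was not tested.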

How the data were processed

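RNA of 3 MTT and 3 MPC samples was read on 1-colour Affymetrix Mouse Gene 1.0 ST arrays. The authors deposited log2 signals after RMA (background subtraction, quantile normalization and summary per probe set). RMA and Affymetrix Expression Console stand in the submitters' processing notes, and Partek and R in the methods, without versions; the genome build is not given in the sources used here. Background and probe summary compress small folds, and the number of arrays limits precision.

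From 34760 probe sets, the 21640 with 1 symbol were kept, 21553 of which matched the RefSeq gene table, and the brightest per gene gave 19937 genes. MTT was compared with MPC in limma 3.58.1 (R 4.3.3), two-sided, with Benjamini-Hochberg adjustment over all genes and without a block. The fit was also run on simulated data with independent noise and planted differences larger than those of the 10 genes. That run does not bear on differences as small as theirs. The methods name an ANOVA, whose 2-group form was an alternative. Named are the 10 members, the called genes of each list or else its largest differences, and the 3 genes most like Ccnd1; a few others were chosen after their values were seen. The members and lists were chosen with earlier results of these data known. Figures were drawn with matplotlib 3.10.9.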

Additional observations from a re-analysis of the deposited data

How the results depend on the processing

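With each of 14 other settings, 136 of 140 values of the 10 genes stayed on the same side of the threshold, none was called with a turned sign, and 4 passed, 3 of Ccnd1 and 1 of Cdkn2a. The count of the 10 called was 1 with a mean-variance trend, 2 among genes above the median signal and 1 after cyclic loess, where 12.1%, 22.1% and 8.86% of all genes tested passed. It was 0 in each fit that left out 1 array. The 5 other genes of the axis became 3 with ordinary variances, 3 with the replicate number as a block, 3 with all probe sets, and 3 to 4 without 1 array, Bmi1, E2f3 and Ccnh passing in each. Of 948 values of the other genes of the axis, 18 were no longer past the threshold, all of Cdk7 or Mnat1, and 3 newly passed, 2 of Ccne2 and 1 of Cul4a. Over all genes, 824 passed with ordinary variances, 2416 with a mean-variance trend and 942 of all probe sets; 891 to 1276 passed without 1 array, the lowest without MTT replicate 2. The causes were not tested, apart from fewer arrays or other features tested.

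The same replicate numbers do not pair the samples by the labels. Deviations from the group means of same-numbered arrays correlated at 0.116, 0.0735 and 0.249 for numbers 1, 2 and 3, and each array correlated best with its own number, a hint from the data only. With the replicate block 1501 genes passed, and no call among the 10 changed.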
